A study of Mus musculus with 8 samples.

Results

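The basolateral membrane of the distal convoluted tubule carries the potassium channels, the chloride channels and the sodium pump that complete NaCl reabsorption in this segment. The 5 genes described here are Kcnj10 and Kcnj16, which encode the channel subunits Kir4.1 and Kir5.1, Bsnd, which encodes barttin, and Atp1b1 and Fxyd2, which encode the beta-1 and gamma subunits of the Na,K-ATPase. They were taken by name, all 5 were found among the 42416 gene identifiers of the files, and all 5 were among the 14268 genes tested.

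The data are RNA sequencing read counts from sorted mouse distal convoluted tubule fragments, 4 KO libraries and 4 Control libraries. KO animals were Tg/Tg for Cnb1fl, the floxed regulatory subunit of calcineurin, a phosphatase activated by calcium, and Control animals were wt at Cnb1fl. Animals of both groups were Tg/+ for NCCcre and Tg/+ for TOMATO, and both received tamoxifen (2 mg per animal daily by gavage, 5 days in a row) with tissue collected after 3 weeks. Each library was made from 1000 fragments, so it is a bulk sample in which fewer cells of a type and less RNA per cell cannot be told apart. By its name the Cre belongs to the NaCl cotransporter, the apical carrier of this segment, and the sources used here give neither age nor sex. Each label names another animal number. The question is which transcripts change in the distal convoluted tubule when calcineurin is deleted there, asked here of the basolateral membrane.

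As background, the sodium pump exports sodium across the basolateral membrane and brings potassium in, and the Kir4.1/Kir5.1 heteromer lets that potassium leave again and sets the membrane potential. Chloride leaves through channels of the ClC family, which need barttin to reach the membrane and to conduct. In this segment the membrane potential set by Kir4.1/Kir5.1 governs intracellular chloride, which inhibits WNK kinases and so tunes the NaCl cotransporter. Mutations of KCNJ10, KCNJ16, BSND or FXYD2 in humans cause renal salt, potassium or magnesium wasting.

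Total counts per library ranged from 18161442 to 45150953, and the 5 genes together took 1.06% to 1.43% of them. The targeted gene Ppp3r1 had a log2 fold change of -0.18 ± 0.13 (SE, edgeR quasi-likelihood adjusted p = 0.548), so it did not check the genotype labels, and groups are named by those labels. Slc12a3, the NaCl cotransporter that defines the segment, stood at 5120.1 ± 1988 CPM in KO and 6783 ± 1045 CPM in Control (SD, n = 4 each). CPM values are counts divided by TMM-adjusted library sizes and brought to a common total. Markers of other segments were present, led by Umod of the thick ascending limb at 3859 ± 978 CPM in KO and 8812 ± 2056 CPM in Control. Control replicate 1 stood apart in its short transcripts, a measure chosen after the data were seen: the 1016 tested genes with a longest transcript under 1000 bp, ribosomal protein genes left out, had a median log2 deviation from their own mean of 0.40 there, against -0.12 to 0.02 in the KO libraries and -0.09 to 0.02 in the other Control libraries.

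Promoter sequence was taken from RefSeq (GRCm38.p6) for the 3 of the 5 genes that have an entry, and the 100 bases before the annotated start are shown to compare the genes of the channel pair, Kcnj10 and Kcnj16, with a pump subunit, Atp1b1. Bsnd and Fxyd2 are named only. All letters are in lower case because none of the motifs searched lies in these windows. The windows are chr1:172341110-172341209 (plus strand) for Kcnj10, chr11:110967933-110968032 (plus strand) for the first of 4 Kcnj16 starts, and chr1:164458356-164458455 (minus strand) for Atp1b1, each read 5′ to 3′ on the gene's strand.
Kcnj10: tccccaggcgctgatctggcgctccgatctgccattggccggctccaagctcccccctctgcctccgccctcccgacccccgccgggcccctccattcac
Kcnj16: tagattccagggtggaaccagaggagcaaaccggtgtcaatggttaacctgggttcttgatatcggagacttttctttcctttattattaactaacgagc
Atp1b1: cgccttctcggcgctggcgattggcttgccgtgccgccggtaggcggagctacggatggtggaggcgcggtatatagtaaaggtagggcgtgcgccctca
The Kcnj16 window holds 43.0% G and C, against 73.0% in Kcnj10 and 66.0% in Atp1b1, a wide difference within the channel pair at the first Kcnj16 start. Over the full entries of 300 bases, the 4 Kcnj16 starts hold 44.0% to 53.0%, against 63.7% in Kcnj10. Which Kcnj16 start is used in these fragments was not tested. In the full 300-base entries, which run from 250 bases before to 50 bases after the start, 3 motifs were searched on both strands. The string GGAAAA, a strict form of the site of NFAT, the transcription factor that calcineurin activates, was found in none of the 3 genes' entries. It occurs in 23.4% of all 32851 promoter entries. The shorter GGAAA was not searched, and its reverse complement tttcc lies in the Kcnj16 window shown. The estrogen-related receptor sequence TCAAGGTCA, which occurs in 0.423% of promoters, was not found in them either. The TATA sequence TATAAA, which occurs in 13.6%, was found only in the entry of the third Kcnj16 start, where it begins at position -133 from that start. Variants, such as the tatata in the Atp1b1 window shown, were not searched. These matches describe letters in a window and not sites of binding.

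Of the 5 genes, 0 passed the threshold (Benjamini-Hochberg adjusted p under 0.05 over all genes) by edgeR's quasi-likelihood test, in a comparison that called 2.21% of tested genes, 1.34% as higher and 0.876% as lower in KO. Barttin's gene Bsnd came nearest, was higher in all 4 KO libraries than in any Control library, and was the 1 of the 5 called by DESeq2, by limma-voom and by edgeR on library totals. DESeq2 called 2.96% of genes as higher in KO, limma-voom 2%, and edgeR on library totals 1.7% as higher and 2.33% in either direction. Counted at an unadjusted p under 0.05 by edgeR with TMM, 1 of the 5 genes was different, against 13.9% of all genes tested. DESeq2, limma-voom and edgeR on library totals each gave 2 of the 5, both higher in KO. Over all 14268 genes these 3 settings gave 2220, 2933 and 2738. The log2 fold changes ranged from -0.08 to 0.49 and had a median of 0.07, where the median over all tested genes was -0.02.

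**Figure D1:**
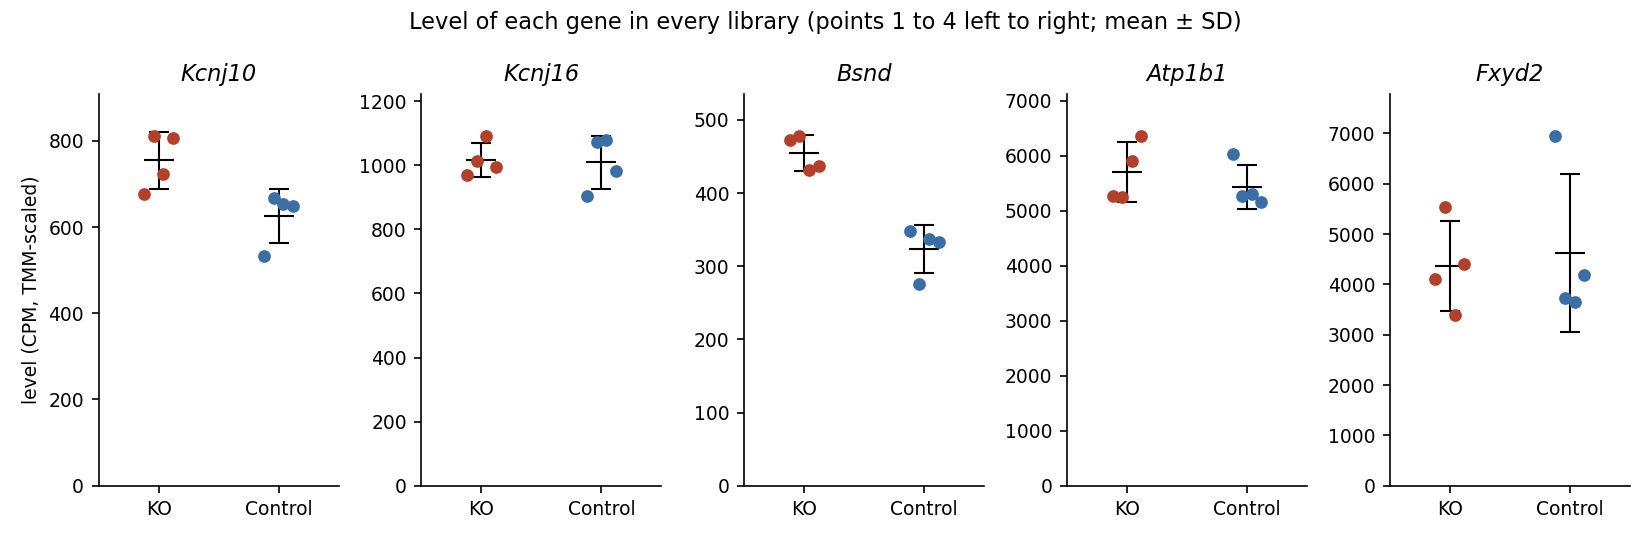
Level in CPM of each of the 5 genes in every KO and Control library (points), with the mean and SD of each group (black) and axes that start at 0. KO lies above Control without overlap for Kcnj10 and Bsnd, and the Fxyd2 point of Control replicate 1 stands far above the other Control libraries.

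Kcnj10 (ENSMUSG00000044708, chromosome 1, 172341210 to 172374085, plus strand, GRCm38) encodes Kir4.1, the subunit that makes the basolateral channel conduct. Its level was 678, 813, 722 and 807 CPM in the 4 KO replicates in turn, and 533, 667, 653 and 650.1 CPM in Control replicates 1 to 4. The 4 KO libraries lay above the 4 Control libraries, but the lowest KO library was only just above the highest Control library, and groups that do not overlap were seen in 9.44% of all tested genes, with KO higher in 5.61% and lower in 3.83%. The mean was 755 ± 65.8 CPM in KO and 626 ± 62.1 CPM in Control (SD, n = 4 each). The log2 fold change of 0.27 ± 0.13 (SE, edgeR adjusted p = 0.378) missed the threshold. The limma-voom 95% interval of the difference was 0.02 to 0.45, or 1.02- to 1.37-fold, with a limma-voom adjusted p of 0.199. Without Control replicate 1, the lowest library, the log2 fold change was 0.20 (adjusted p = 0.420).

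Kcnj16 (ENSMUSG00000051497, chromosome 11, 110968033 to 111027968, plus strand) encodes Kir5.1, which by itself gives little current and confers sensitivity to pH and a larger conductance on the heteromer. Its level was 971, 1015, 1093 and 994 CPM in the 4 KO replicates in turn, and 906, 1073, 1078 and 981 CPM in Control replicates 1 to 4. The groups overlapped almost completely, with a mean of 1018 ± 53.1 CPM in KO and 1009.7 ± 82.4 CPM in Control (SD, n = 4 each). The log2 fold change was 0.01 ± 0.12 (SE, edgeR adjusted p = 0.972), and it turned negative under some settings, with limma-voom giving -0.05 and an interval of -0.25 to 0.16. The bounds of that interval are 0.842- and 1.11-fold.

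Kcnj10 counts relative to Kcnj16 counts in the same library do not depend on library scaling. The ratio was 0.699, 0.801, 0.661 and 0.812 in KO replicates 1 to 4, and 0.589, 0.621, 0.606 and 0.662 in Control replicates 1 to 4. Control replicate 4 lay just above KO replicate 3, so the groups overlapped by a single pair of libraries. The mean log2 ratio was higher in KO by 0.26 (exact two-sided permutation p = 0.0571, 0.229 after adjustment over the 8 ratios tested), and a p under 0.0286 is out of reach with 4 libraries against 4.

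Bsnd (ENSMUSG00000025418, chromosome 4, 106483456 to 106492283, minus strand) encodes barttin, the accessory subunit of basolateral ClC channels. Its KO libraries held 472, 479, 431 and 437 CPM in replicates 1 to 4, against 348, 276, 338 and 333 CPM in Control replicates 1 to 4. Every KO library was above every Control library, and the gap between the groups was larger than the range within either. The mean was 455 ± 24.04 CPM in KO and 324 ± 32.5 CPM in Control (SD, n = 4 each), a 1.40-fold difference. The log2 fold change was 0.49 ± 0.12 (SE, edgeR adjusted p = 0.0725). DESeq2, which called 5.25% of its genes, gave 0.48 (adjusted p = 0.000602), and limma-voom, which called 3.64%, gave 0.51 (adjusted p = 0.0241) with a 95% interval of 0.29 to 0.73, or 1.22- to 1.66-fold. The direction was positive in all 18 other settings, between 0.40 and 0.64, with adjusted p-values from 0.000602 to 0.324, and the call depended on the test and the scaling.

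Barttin is also made in the thick ascending limb and in intercalated cells, so the markers of these cells, and of the neighbouring connecting tubule, are given beside it. The summed level of the 8 thick ascending limb markers was 3130 to 5922 CPM in KO and 8127 to 13013 CPM in Control, so it was lower in every KO library, and 1 of 8 (Umod) fell and 0 rose by edgeR. That call was lost with the batch term, the block and the 5 CPM filter, and in 6 of the 8 fits that left out a library, all but those without KO replicate 3 and without Control replicate 2. Of the 8 thick ascending limb markers, 3 were lower in KO at an edgeR unadjusted p under 0.05. DESeq2 called 2 of the 8 and limma-voom 1 as lower. The summed level of the 8 connecting tubule and principal cell markers was 207 to 420.3 CPM in KO and 417 to 664 CPM in Control, with a median log2 fold change of -0.92. Of these, 0 passed by edgeR, 7 had a lower level in KO at an unadjusted p under 0.05, and DESeq2 called 3 and limma-voom 2 as lower. The sum of the 8 intercalated cell markers was 716 to 1109 CPM in KO and 795 to 973 CPM in Control, and the groups overlapped. Of these 8 markers, 0 passed by edgeR, DESeq2 or limma-voom, and 1 was higher in KO at an edgeR unadjusted p under 0.05. The sum of the 8 leukocyte markers, led by Csf1r, was 27.5 to 79.4 CPM in KO and 18.6 to 25.0 CPM in Control. Of the 6 tested, 0 passed by edgeR or limma-voom, and DESeq2 called 3 as higher in KO. By edgeR 3 were higher in KO at an unadjusted p under 0.05. The part of these cells in the Bsnd level was not tested.

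**Figure D2:**
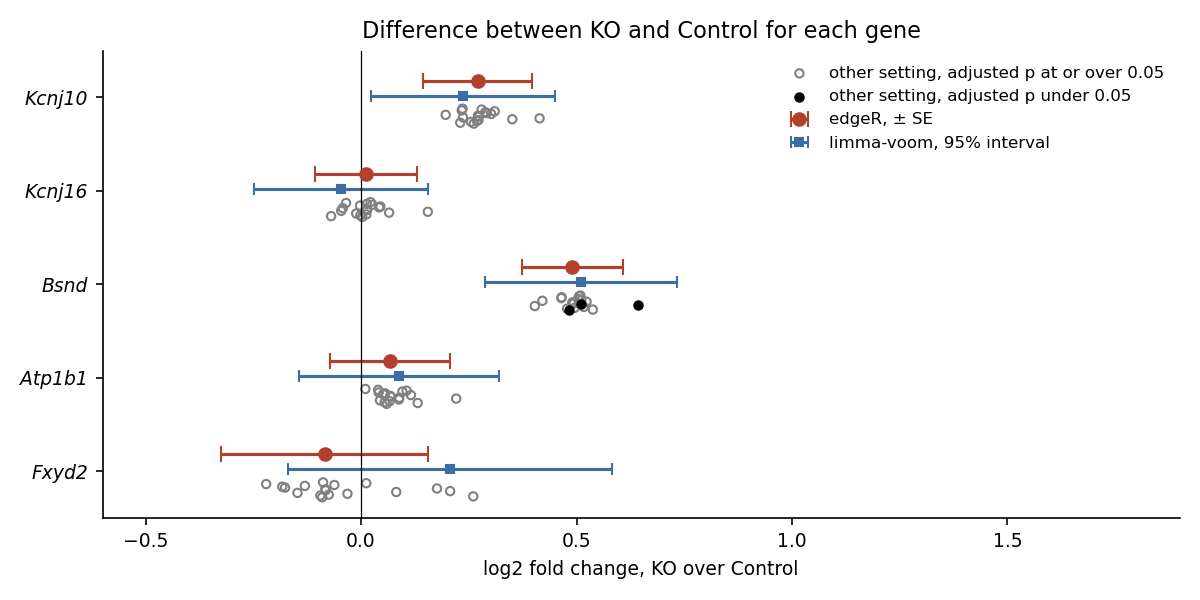
Log2 fold change of each gene, KO over Control, from edgeR (red, ± SE), from limma-voom (blue, 95% interval), and under the 18 other settings including limma-voom (small circles, filled where the adjusted p was under 0.05). The filled circles all belong to Bsnd, Kcnj10 circles are all right of 0, and those of Kcnj16 and Fxyd2 lie on both sides.

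Atp1b1 (ENSMUSG00000026576, chromosome 1, 164437109 to 164458355, minus strand) encodes the beta-1 subunit, which the catalytic alpha subunit needs in order to fold and reach the membrane. Its KO libraries held 5278, 5245, 5915 and 6371 CPM in replicates 1 to 4, against 6034, 5267, 5315 and 5153 CPM in Control replicates 1 to 4. The highest and the second lowest libraries were both KO, and the groups overlapped. The mean was 5702 ± 542 CPM in KO and 5442 ± 400.3 CPM in Control (SD, n = 4 each), with a log2 fold change of 0.07 ± 0.14 (SE, edgeR adjusted p = 0.840) and a limma-voom interval of -0.14 to 0.32. Exons of Nme7 on the opposite strand overlap 18.7% of its exon length, but Nme7 held only 0.496% as many counts. The exons of the other 4 genes overlap no other annotated gene.

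Fxyd2 (ENSMUSG00000059412, chromosome 9, 45399669 to 45410278, plus strand) encodes the gamma subunit, a small membrane protein that adjusts the affinity of the pump for sodium. Its KO libraries held 4114, 5547, 3395 and 4414 CPM in replicates 1 to 4, against 6958, 3719.8, 3653 and 4192 CPM in Control replicates 1 to 4. Control replicate 1 was the highest of the 8 libraries, and the lowest was KO replicate 3. The mean was 4368 ± 895 CPM in KO and 4631 ± 1569.8 CPM in Control (SD, n = 4 each). The log2 fold change was -0.08 ± 0.24 (SE, edgeR adjusted p = 0.887), and without Control replicate 1 it was 0.18 (adjusted p = 0.683). Limma-voom, which weights libraries by quality, gave 0.21 with an interval of -0.17 to 0.58, the widest of the 5.

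Fxyd2 and the short transcripts were both high in Control replicate 1, but did not move together in every library. The log2 deviation of Fxyd2 from its own mean was 0.34 in KO replicate 2, where the median of the short genes was 0.018, and 0.67 in Control replicate 1, where that median was 0.40. The longest Fxyd2 transcript, at 1694 bp, lies outside the class under 1000 bp. Ribosomal protein genes took 1.95% of counts in Control replicate 1, against 1.15% to 1.44% in the KO libraries and 1.19% to 1.25% in the other Control libraries. Fxyd2 and Atp1b1 are also made in the proximal tubule, and the summed level of its 10 markers was 4172 to 10951 CPM in KO and 6947 to 16296 CPM in Control, with overlap. The part of short transcripts and of other segments in the Fxyd2 values was not tested. Atp1b1 counts relative to Fxyd2 counts were 1.28, 0.946, 1.74 and 1.44 in KO replicates 1 to 4, and 0.867, 1.42, 1.46 and 1.23 in Control replicates 1 to 4. The groups overlapped, and the mean log2 ratio was higher in KO by 0.12 (exact two-sided permutation p = 0.657, adjusted over the 8 ratios 0.657), which turned negative without Control replicate 1 or KO replicate 3.

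Set against Slc12a3 in the same library, all 5 genes averaged higher in KO, and KO replicate 1 was the exception each time. Bsnd counts were 0.0585, 0.106, 0.110 and 0.110 of Slc12a3 counts in KO replicates 1 to 4, and 0.0617, 0.0440, 0.0472 and 0.0414 in Control replicates 1 to 4. The mean log2 ratio was higher in KO by 0.96 for Bsnd, 0.73 for Kcnj10, 0.53 for Atp1b1, 0.48 for Kcnj16 and 0.41 for Fxyd2. None passed, with exact two-sided permutation p-values of 0.0571 to 0.486 and adjusted p-values of 0.229 to 0.555. The smallest permutation p within reach was 0.0286, so a ratio on its own could not pass after adjustment over the 8 ratios. Not passing is therefore no sign that the ratios were equal. Slc12a3 itself was at 8074 CPM in KO replicate 1 and at 3911 to 4521 CPM in the other KO libraries, against 5651 to 8049 CPM in Control, and all 5 ratios share it. The summed level of the 9 distal convoluted tubule markers, Slc12a3 and Wnk4 among them, was 5525 to 9587 CPM in KO and 10007 to 14419 CPM in Control, where 1 rose and 5 fell by edgeR, and its part in these ratios was not tested. That count was 0 risen and 1 fallen with the animal series as a block, in the larger animal series alone, and when either KO replicate 2 or Control replicate 4 was left out. With a library left out, the difference ranged from 0.88 to 1.18 for Bsnd and from 0.60 to 1.03 for Kcnj10. Both were highest without KO replicate 1, and the lowest adjusted permutation p of either was 0.0762.

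**Figure D3:**
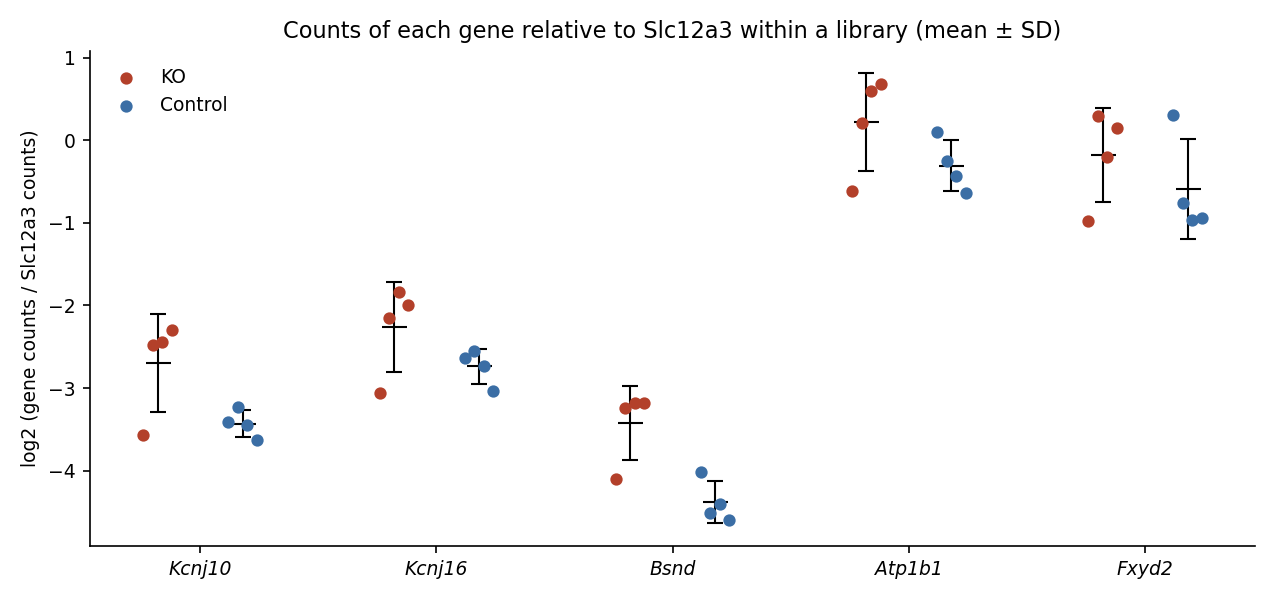
Counts of each gene divided by Slc12a3 counts of the same library, on a log2 axis, with points for the 4 KO and 4 Control libraries and the mean and SD in black. KO replicate 1 is the lowest KO point for all 5 genes and lies within or just below the Control range. The other KO libraries lie above all Control libraries for every gene except Fxyd2, and all 5 ratios share Slc12a3.

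Levels of different genes were compared per length, as counts per kilobase of exon scaled to the same sum in each library, which ranks genes within a group and was not used to compare groups. Atp1b1 stood at 4715 ± 709 in KO and 3777 ± 171 in Control on this scale, Fxyd2 at 2774 ± 582 in KO and 2424 ± 528 in Control, and Kcnj16 at 656 ± 33.999 in KO and 554 ± 94.0 in Control (SD, n = 4 each). Bsnd stood at 419.7 ± 40.7 in KO and 251 ± 20.9 in Control, and Kcnj10 at 355 ± 43.8 in KO and 251 ± 47.9 in Control. Among the 14251 tested genes with a length, Atp1b1 ranked 17, Fxyd2 25, Kcnj16 126, Bsnd 286 and Kcnj10 324. In both groups the order was Atp1b1, Fxyd2, Kcnj16, Bsnd, Kcnj10. The ranges of neighbours were apart except for Bsnd and Kcnj10, which overlapped in both groups. With the longest transcript as the length, Fxyd2 came before Atp1b1 and their ranges overlapped, and the 13 annotated Fxyd2 transcripts span 4005 bp of exon while the longest has 1694 bp.

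Of the 15 listed sodium pump subunits 9 were tested, and 3 of these had an edgeR unadjusted p under 0.05. All 3 were lower in KO, and the share over all tested genes was 13.9%. The median log2 fold change was -0.08, and after adjustment 0 rose and 1 fell. The gene that fell was Fxyd1, which encodes the phospholemman of heart and muscle, and it rests on 87 counts in all. Its KO libraries held 0.103, 0.193, 0.0787 and 0.150 CPM in replicates 1 to 4, against 0.536, 0.770, 0.784 and 0.702 CPM in Control replicates 1 to 4 (log2 -2.41 ± 0.42, SE, edgeR adjusted p = 0.0215). That call was lost in 6 of the 8 fits that left out a library, and kept without KO replicate 3 and without Control replicate 1.

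Of the 15 inward rectifier potassium channels 9 were tested, and 0 passed by edgeR, with 1 at an unadjusted p under 0.05, 1 called by DESeq2 and 0 by limma-voom, and a median log2 fold change of -0.08. Kcnj1, which encodes the apical secretory channel ROMK, stood at 1713 ± 107 CPM in KO and 1764 ± 179 CPM in Control (SD, n = 4 each), with a log2 fold change of -0.04 ± 0.13 (SE, edgeR adjusted p = 0.898). The gene called by DESeq2 was Kcnj13, whose exons overlap those of the far more abundant Gigyf2 on the opposite strand, so its reads are uncertain. Kcnj15, which encodes Kir4.2, varied widely, from 93.2 to 279 CPM in KO and from 71.6 to 391 CPM in Control. Kcnj13 and Kcnj15 were chosen after their values were seen.

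Of the 11 genes of ClC channels, exchangers and their accessory subunits, 10 were tested and 0 passed by edgeR, with 1 (Bsnd) at an unadjusted p under 0.05 and called by DESeq2 and limma-voom.

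Of the 4 potassium-chloride cotransporters, which carry both ions out across the basolateral membrane, all were tested and 0 passed by edgeR, with 1 at an unadjusted p under 0.05. That gene, Slc12a4, had values of 36.0, 32.2, 27.4 and 43.6 CPM in KO replicates 1 to 4 and 25.7, 22.5, 20.01 and 21.8 CPM in Control replicates 1 to 4. The groups did not overlap, and the log2 fold change was 0.63 ± 0.15 (SE, edgeR adjusted p = 0.0766), called by DESeq2 and limma-voom. Slc12a7, the kidney form KCC4, stood at 135 ± 6.08 CPM in KO and 120.3 ± 29.1 CPM in Control (log2 0.17 ± 0.18, SE, edgeR adjusted p = 0.681).

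Of the 19 listed regulators of basolateral transport 16 were tested, and 7 of these had an edgeR unadjusted p under 0.05. Of the 7, 3 were higher in KO, and the share over all tested genes was 13.9%. The median log2 fold change was -0.06, and after adjustment 0 rose and 1 fell. The gene that fell was the kinase Wnk4 (log2 -0.74 ± 0.16, SE, edgeR adjusted p = 0.0482), at 387 ± 58.8 CPM in KO and 646 ± 106 CPM in Control, and its call was lost with the animal series as a block, the batch term, the 5 CPM filter and library totals, and in each of the 8 fits that left out a library. Pcbd1, which encodes a pterin dehydratase, stood at 207 ± 22.3 CPM in KO and 276 ± 70.2 CPM in Control (log2 -0.41 ± 0.17, edgeR adjusted p = 0.328). Wnk1 and Casr were chosen after their values were seen, as the 2 other regulators called by both DESeq2 and limma-voom. Wnk1, a kinase of the same family as Wnk4, had 2017, 2063, 2698 and 2269 CPM in KO replicates 1 to 4 and 2942, 3133, 3543 and 3707 CPM in Control replicates 1 to 4. All KO libraries lay below all Control libraries, with a log2 fold change of -0.56 ± 0.15 (SE, edgeR adjusted p = 0.107, DESeq2 0.00230, limma-voom 0.0188). Casr, the calcium-sensing receptor, had 243, 312, 263 and 395 CPM in KO replicates 1 to 4 and 84.2, 176, 156 and 199 CPM in Control replicates 1 to 4. Its groups did not overlap, and its log2 fold change of 0.98 ± 0.26 (SE, edgeR adjusted p = 0.0973, DESeq2 0.00802, limma-voom 0.0247) missed the threshold by edgeR.

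**Figure D4:**
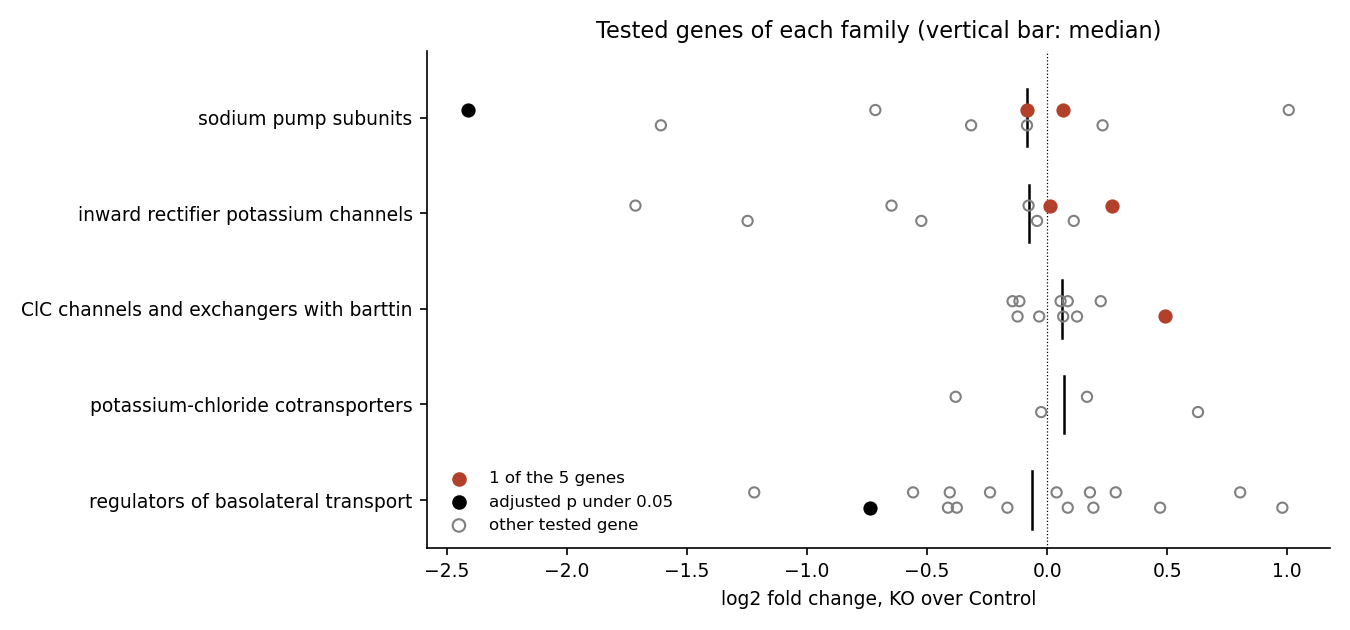
Log2 fold change, KO over Control, of every tested gene in the families (circles), with the 5 genes in red, genes past the threshold in black and a vertical bar at each median. The medians lie between -0.08 and 0.07, the red circles lie between -0.08 and 0.49, and the black circles are Fxyd1 and Wnk4.

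The genes whose profile over the 8 libraries lay closest to each of the 5 were found by the root mean square difference of log2(CPM + 1) after centring each gene on its own mean, among 9345 genes at 10 CPM or more. Closest to Kcnj10 were AU040320 at 0.033, Atp8b1 at 0.059 and Tmem127 at 0.060, and its own spread about its mean on this scale was 0.18. Close to Kcnj16 were Iars2 at 0.041 and 6030458C11Rik at 0.047. Bsnd had Rabl2 at 0.083, Trabd2b at 0.10 and Gm43618 at 0.11, and the last pair were past the threshold (edgeR adjusted p = 0.0499 and 0.0390). Trabd2b stood at 362 ± 16.3 CPM in KO and 262 ± 12.8 CPM in Control (SD, n = 4 each). Atp1b1 lay closest to Ppp3ca, a catalytic subunit of calcineurin, at 0.040, to 3830406C13Rik at 0.046 and to Rbm22 at 0.051. The own spread of Atp1b1 was only 0.11, and genes that vary little lie close by this measure without moving together. Ppp3ca had a log2 fold change of 0.03 (edgeR adjusted p = 0.912). Fxyd2 lay closest to Zmat5 at 0.076, to the ribosomal protein gene Rpl10a at 0.082 and to Selenow at 0.084. Among the 5 genes themselves the nearest pair, Kcnj16 and Atp1b1, lay 0.15 apart, and Kcnj10 lay 0.16 from Kcnj16. These distances cannot be set against those above, where the closest genes were picked out of 9345.

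The form of the file name (with or without an index sequence) and the series of the animal number are splits that can be read from the labels and files. What they stand for is not given. The batch term is a name for the file name form alone, and the block for the animal series. Among the 3 KO and 3 Control libraries whose file names lack an index, the log2 fold change was 0.40 ± 0.14 for Bsnd and 0.35 ± 0.16 for Kcnj10 (SE, edgeR adjusted p = 0.324 and 0.478). In the pair with an index, Bsnd was at 472 CPM in KO replicate 1 and 276 CPM in Control replicate 2, and Kcnj10 at 678 CPM in KO replicate 1 and 667 CPM in Control replicate 2. In the animal series with 3 KO and 2 Control libraries, the log2 fold change was 0.54 ± 0.14 for Bsnd and 0.23 ± 0.13 for Kcnj10 (SE, edgeR adjusted p = 0.212 and 0.501).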

How the data were processed

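The deposited values are raw read counts for each Ensembl gene identifier in 8 libraries. The submitters' processing notes name the tools bcl2fastq 2.20, fastp 0.20.0 and STAR 2.7.4a and the build GRCm38.p6. The sources used here do not say how reads were counted, with which annotation or strand setting. Names, positions and lengths come from GENCODE vM21 (GRCm38), which named 42263 of 42416 identifiers. Replicate numbers only name libraries in order of deposit. Replicates of a group differed by more than sampling noise (chi-square per degree of freedom 29.0 to 190), so each library was counted as a separate sample.

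Genes were kept by filterByExpr, scaled by TMM and tested with edgeR 4.0.16 (two-sided quasi-likelihood F test, genotype as the single factor, 8 libraries, R 4.3.3), adjusted by Benjamini-Hochberg over all genes at a threshold of 0.05. The SE is the log2 fold change over the square root of F. Intervals come from limma 3.58.1 (voom with quality weights). The edgeR fit was also run on simulated counts. Ratios used counts + 0.5 and exact permutations over 70 assignments. Alternatives were DESeq2 1.42.0, 2 other scalings, 2 other filters, limma-voom, a batch term, a block and leaving out each library. The 5 genes and the lists were chosen with earlier results of these data known. Named genes were the 5, in each list every member past the threshold plus the 2 highest per length of the rest tested, and for each of the 5 the 3 closest profiles. Some genes that this rule takes are not reported here.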

Additional observations from a re-analysis of the deposited data

Results flagged for a closer look

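Libraries that stood apart from the rest of their group of 4 were sought in 26 groups of values, the CPM of the 5 genes and their 8 log2 ratios in each genotype, and 5 were found, where chance flags about 1 in 20 groups. The values share libraries and Slc12a3, so they are not independent. Kcnj10 in Control replicate 1 was at 533 CPM, below the other Control libraries at 650.1 to 667 CPM. Fxyd2 in Control replicate 1 was at 6958 CPM, above the other Control libraries at 3653 to 4192 CPM. The log2 ratio of Kcnj10 to Slc12a3 in KO replicate 1 was -3.57, against -2.48 to -2.30 in the other KO libraries. The log2 ratio of Bsnd to Slc12a3 in KO replicate 1 was -4.10, against -3.24 to -3.18 in the other KO libraries. The log2 ratio of Fxyd2 to Slc12a3 in Control replicate 1 was 0.30, against -0.97 to -0.76 in the other Control libraries.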

How the results depend on the processing

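The count of genes past the threshold over the whole transcriptome, 316, was 749 with DESeq2, 519 with limma-voom, 140 with at least 5 CPM in 4 libraries, 199 with a batch term for the file name form, 29 with the animal series as a block, 56 in the libraries without an index in the file name and 16 in the larger animal series, and ranged from 36 (without KO replicate 2) to 388 (without KO replicate 3) when a library was left out. The last pair of subsets was added after the data were seen. Of the 5 genes, 1 (Bsnd) was called with DESeq2, limma-voom and library totals, at log2 fold changes of 0.48, 0.51 and 0.64, and 0 were called in every fit that left out a library, with Bsnd between 0.42 and 0.52 (adjusted p from 0.0579 to 0.207). With library totals the median log2 fold change of all genes was 0.13, and with TMM -0.02, so part of the 0.64 is a shift of all genes. Kcnj10 stayed positive and Atp1b1 stayed positive in all 18 settings. Kcnj16 turned to -0.046 with limma-voom, -0.070 in the larger animal series, -0.0016 with the 5 CPM filter and -0.011 with the animal series as a block, and ranged from -0.042 to 0.045 with a library left out. Fxyd2 turned to 0.21 with limma-voom, 0.082 with library totals and 0.26 in the larger animal series, and ranged from -0.22 to 0.18 with a library left out. The log2 ratio of Atp1b1 to Fxyd2 ranged from -0.045 (without Control replicate 1) to 0.28 with a library left out. None of these values passed the threshold, and the cause of the reversals was not tested.

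Calls in the sodium pump list, 1 at first, numbered 0 with the 5 CPM filter (which leaves Fxyd1 untested), the block and both subsets, and 0 to 1 with a library left out. Calls among inward rectifiers numbered 1 with DESeq2. Calls among ClC genes numbered 1 with DESeq2, library totals and limma-voom. Calls among potassium-chloride cotransporters numbered 1 with those settings, and 0 to 1 with a library left out. Calls among regulators, 1 at first, numbered 3 with DESeq2 and limma-voom and 0 with the 5 CPM filter, the batch term, the block, library totals, both subsets and each library left out. No paired analysis was possible because the labels give no replicate numbers shared between the groups. Each of the 5 genes held 86794 counts or more over the 8 libraries, so the spread between libraries and their number set the precision here more than depth.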
